A study of Mus musculus with 24 samples.

Results

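Macrophages are among the first blood cells to enter the embryo's tissues, and this account follows 10 genes that mark them in the developing lower jaw of the mouse: Csf1r, C1qa, C1qb, C1qc, Cd68, Fcer1g, Tyrobp, Laptm5, Mrc1 and Lyz2. They were taken as a named set, chosen with earlier results of these data known. Every probe annotated to one of the symbols was read, the probe with the highest mean first and the others as a check. 9 of the 10 had such a probe and all 9 passed the filter on dim probes, out of 12698 genes tested; Cd68 is named only. RNA of the mandibular prominence, the paired outgrowth of the embryonic face from which the lower jaw forms, was hybridised to 24 Illumina bead arrays, 1 array for 1 embryo. The embryos were of embryonic days 10, 11, 12 and 13 (E10 to E13) and carried the Trp63tm2Brd allele of the strain B6.129S7-Trp63tm2Brd/J, which disrupts the transcription factor gene p63 (Trp63) of surface epithelia, either on both chromosomes (p63-/-) or on 1 (p63+/-). The strain C57BL6/J is also named in the labels. Each of the 8 groups of stage and genotype held 3 embryos of different litters, unpooled, so every embryo carried at least 1 mutant allele, and wild-type embryos were not analysed here.

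Tissue macrophages of this age descend largely from progenitors of the yolk sac and fetal liver, divide and survive on signals through the receptor Csf1r, and clear dying cells. Fcer1g and Tyrobp encode small membrane adaptors whose cytoplasmic tails carry ITAMs, the tyrosine motifs through which Fc receptors and related receptors signal. C1qa, C1qb and C1qc encode the chains of C1q, the recognition protein of the classical complement pathway, which macrophages secrete and which also binds dying cells. Mrc1 encodes the mannose receptor (CD206), an endocytic receptor of tissue macrophages, Laptm5 a lysosomal membrane protein of blood cells, and Lyz2 lysozyme M, an antibacterial enzyme of macrophages and neutrophils. Several of them are known targets of the myeloid transcription factor Spi1 (PU.1), which binds a core of GAGGAA or its reverse complement TTCCTC.

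Promoters of members that were measured are shown as sequence, and a part of Spi1 in the values of these genes was not tested. RefSeq promoters (GRCm38.p6) were at hand for 6 of the 9 measured members, and 4 of those 6 held the core on either strand within the 250 bases before the start that the promoter table gives (C1qb, C1qc, Mrc1 and Laptm5), against 23.3% of 32851 promoters. For Laptm5 that start lies downstream of the outermost annotated start of the gene, so its window is not shown. Fcer1g and Lyz2 held no match. The bases before the outermost annotated start of C1qb, C1qc, Mrc1 and Fcer1g follow, 5′ to 3′ along the gene, from chr4:136886201-136886450 (minus strand), chr4:136892937-136893164 (minus strand, 228 bases), chr2:14229164-14229413 (plus strand) and chr1:171234350-171234599 (minus strand), with the core in capitals:
C1qb: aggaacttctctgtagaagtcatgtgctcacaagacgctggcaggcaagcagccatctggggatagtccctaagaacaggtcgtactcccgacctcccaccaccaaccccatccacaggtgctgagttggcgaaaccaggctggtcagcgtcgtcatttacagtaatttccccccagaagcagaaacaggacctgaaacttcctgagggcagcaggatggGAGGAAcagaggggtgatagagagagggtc
C1qc: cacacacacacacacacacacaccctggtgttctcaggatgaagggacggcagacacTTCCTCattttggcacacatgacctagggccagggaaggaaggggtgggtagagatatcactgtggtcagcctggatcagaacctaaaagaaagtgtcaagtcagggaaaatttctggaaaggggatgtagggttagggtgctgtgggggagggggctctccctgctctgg
Mrc1: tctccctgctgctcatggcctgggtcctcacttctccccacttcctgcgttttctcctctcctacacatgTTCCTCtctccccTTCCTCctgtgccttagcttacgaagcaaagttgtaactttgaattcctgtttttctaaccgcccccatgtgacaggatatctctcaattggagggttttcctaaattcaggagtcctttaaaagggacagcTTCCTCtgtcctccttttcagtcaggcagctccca
Fcer1g: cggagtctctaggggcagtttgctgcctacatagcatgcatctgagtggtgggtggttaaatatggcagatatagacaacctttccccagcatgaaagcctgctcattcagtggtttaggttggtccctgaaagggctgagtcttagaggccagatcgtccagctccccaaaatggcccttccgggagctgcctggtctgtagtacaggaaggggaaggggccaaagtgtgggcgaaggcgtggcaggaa
The match began 30 bases before the end of the printed stretch in C1qb and 171 bases before it in C1qc. Mrc1 held 3 matches, at 180, 167 and 35 bases before the end, all as TTCCTC. A match of 6 letters describes the sequence and is no measurement of binding.

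The arrays put most of the set clearly above background, while 3 other defining macrophage genes were hardly seen. Of 8 defining macrophage markers, Csf1r, Adgre1 (the antigen F4/80), Mpeg1 and Aif1 were detected on all 24 arrays at a detection p under 0.05, and the chemokine receptor gene Cx3cr1 on 22. Itgam, the integrin chain CD11b, was detected on 3 arrays, the leukocyte phosphatase gene Ptprc (CD45) on 5 and Spi1 on 1. Levels below are log2 intensities after background correction and normalization, and one probe's level is not set against another's. Whole prominences were used, so for every gene here fewer cells of a type and less RNA per cell cannot be told apart.

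3 features of the arrays touch the results. Arrays detected between 43.4% and 49% of all probes, and Trp63 read 8.97 to 9.89 on the p63-/- arrays and 10.19 to 11.32 on the p63+/- arrays, without overlap. Each slide carried the 6 arrays of 1 stage, so stage and slide cannot be told apart, whereas the genotypes were compared within slides; from E11 onward, p63-/- embryos took the leading positions of each slide and p63+/- embryos the trailing ones. Yolk sac endoderm genes stood apart on E10 p63-/- replicate 3, where the mean level of 12 of them was 12.88 against 5.96 and 7.44 in the other arrays of its group and 5.78 to 6.32 in E10 p63+/-. That array, E10 p63+/- replicate 1 and E11 p63+/- replicate 1 (described below) were left out together in an alternative chosen after the values were seen.

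From E10 to E13 all 9 measured genes rose, averaged over both genotypes, by 0.86 to 1.66 on the log2 scale (1.82-fold to 3.15-fold). Of all genes tested, 31.1% were called higher in this comparison (3953 genes higher and 4446 lower in limma at a Benjamini-Hochberg adjusted p under 0.05), so that a call by itself was common. The median of the 9 differences was 1.33 and that of all genes -0.05, with a 10th and 90th percentile of -0.76 and 1.02. Because earlier results of these data were known when the genes were chosen, such comparisons describe the set and do not test it. In 7 of the 9 genes all 6 E13 arrays lay above all 6 E10 arrays, a separation that 21.4% of all genes showed. Tyrobp and Mrc1 overlapped between these stages. The size of the differences depended on the background correction, though all 9 passed in each case: without it they ran from 0.41 (Tyrobp) to 1.56 (Laptm5), with C1qa at 0.56, and in the authors' deposited table of log2 values from 0.23 (Tyrobp) to 1.53 (Laptm5), with C1qa at 0.28, Csf1r at 0.48 and Lyz2 at 0.56.

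**Figure D1:**
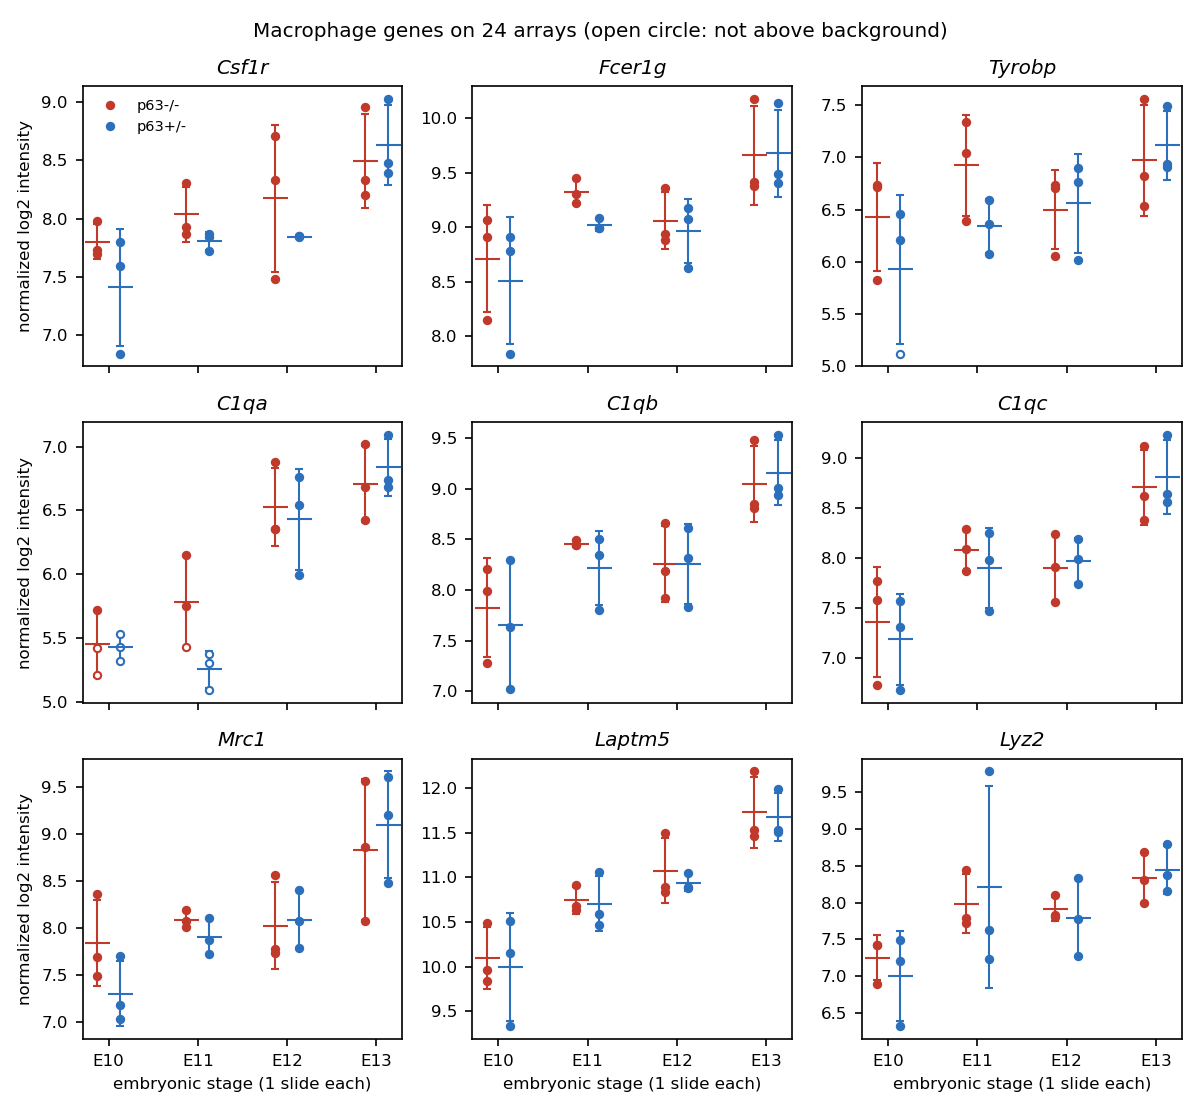
Normalized log2 intensity of 9 macrophage genes by embryonic stage, with p63-/- embryos in red and p63+/- embryos in blue; points are arrays, bars the mean and SD of 3, and open circles arrays where the probe was not above background. E13 arrays lie highest in most panels, C1qa is near background until E12, and the Lyz2 level of 9.78 on 1 E11 p63+/- array stands above all others of that gene.

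Csf1r, the receptor for the growth factors Csf1 and Il34, rose moderately. Its p63-/- arrays read 7.73, 7.70 and 7.98 at E10, 8.31, 7.93 and 7.87 at E11, 7.48, 8.71 and 8.33 at E12 and 8.96, 8.33 and 8.20 at E13. Its p63+/- arrays read 6.84, 7.59 and 7.80 at E10, 7.84, 7.87 and 7.72 at E11, 7.85, 7.85 and 7.84 at E12 and 9.03, 8.48 and 8.39 at E13. Every E13 array was above every E10 array, while the E11 and E12 arrays overlapped both. The level was 7.61 ± 0.40 at E10 and 8.56 ± 0.35 at E13 (SD, n = 6), and the rise was 0.96 (SE 0.19, adjusted p = 0.000238). A dimmer Csf1r probe was detected on 4 arrays, none of them at E10. Its rise was 0.55 (SE 0.16, adjusted p = 0.00653 over probes in limma). With the mean of a gene's detected probes, Csf1r was at 0.49 from E10 to E13 in p63-/- (adjusted p = 0.0929). From E12 to E13 Csf1r was then at 0.41 (adjusted p = 0.0604), and neither passed.

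Of the receptor's ligands, Csf1 rose as well. It read 5.28 ± 0.24 at E10, where 1 of 6 arrays detected it, and 6.56 ± 0.34 at E13, where 6 of 6 did (SD, n = 6; difference 1.28, SE 0.17, adjusted p = 2.75e-06). Il34 did not pass the filter on dim probes.

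The ITAM adaptors differed in how far their stages separated. Fcer1g, the Fc receptor gamma chain, read 7.84 to 9.07 on the 6 E10 arrays, 8.99 to 9.45 at E11, 8.63 to 9.36 at E12 and 9.38 to 10.18 at E13. It rose by 1.06 (SE 0.20, adjusted p = 0.000121), and E10 and E13 did not overlap. Tyrobp (DAP12), which partners Trem2 and other activating receptors, read 5.12 to 6.73 at E10, 6.07 to 7.34 at E11, 6.02 to 6.90 at E12 and 6.53 to 7.56 at E13. Its difference of 0.86 was the smallest of the 9 (SE 0.26, adjusted p = 0.00605), its lowest array of all, E10 p63+/- replicate 1, was the single one of 24 that did not detect it, and with the 3 arrays left out the difference was 0.51 (adjusted p = 0.0651; range over all alternatives 0.00301 to 0.0651). Of 9 other ITAM receptor and kinase genes tested, 4 rose and 1 fell (median 0.23). Over all genes, 31.1% were called higher and 35% lower. The Fc receptor gene Fcgr4, detected on 1 of 6 E10 arrays, rose by 0.81. The adaptor gene Fyb, on no E10 array above background, was at least 1.25-fold higher at E13. The phospholipase gene Plcg2 fell by 0.40.

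The chains of C1q, whose genes lie next to one another in the annotation, all rose from E10 to E13, C1qb and C1qc most alike. C1qb read 8.21, 7.99 and 7.28 in p63-/- and 7.02, 7.64 and 8.30 in p63+/- embryos at E10. At E13 it read 9.48, 8.85 and 8.81 in p63-/- and 9.53, 9.01 and 8.94 in p63+/-. The lowest E13 array thus exceeded the highest E10 array. At E11 the C1qb values were 8.44, 8.44 and 8.49 in p63-/- and 8.50, 7.80 and 8.35 in p63+/-, and at E12 they were 7.92, 8.66 and 8.19 and then 8.32, 8.61 and 7.83, so that these stages overlapped. C1qb rose by 1.36 from E10 to E13 (SE 0.22, adjusted p = 1.89e-05), and C1qc by 1.49 (SE 0.21, adjusted p = 3.4e-06), from 7.27 ± 0.46 to 8.76 ± 0.34 (SD, n = 6). The 2 genes followed each other over the 24 arrays with r = 0.98, whereas C1qa followed C1qb with 0.74 and C1qc with 0.75.

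C1qa came above background late. It was detected on 1 of 6 arrays at E10, 2 of 6 at E11 and 6 of 6 at both E12 and E13. The p63-/- arrays read 5.72, 5.42 and 5.21 at E10, 5.75, 5.43 and 6.15 at E11, 6.35, 6.88 and 6.35 at E12 and 7.02, 6.42 and 6.68 at E13. The p63+/- arrays read 5.32, 5.53 and 5.43 at E10, 5.37, 5.09 and 5.30 at E11, 6.76, 6.54 and 5.99 at E12 and 7.09, 6.68 and 6.74 at E13. In p63+/- embryos, where no E10 or E11 array detected it, the background-corrected level was at least 2.35-fold higher at E13 than at E10 and at least 1.76-fold higher at E12 than at E11. Averaged over the genotypes the difference between E13 and E10 was 1.33 (SE 0.15, adjusted p = 3.33e-07), with the E10 level resting on 1 detected array, and smaller in the authors' deposited table (0.28). Among 5 other complement genes tested, 2 rose and 0 fell (median 0.77), when 31.1% of all genes were called higher. Serping1, the C1 inhibitor gene, rose by 1.23 (SE 0.17, adjusted p = 2.54e-06) and Cfp, properdin, by 0.99 (SE 0.13, adjusted p = 1.26e-06).

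Among the endocytic and lysosomal members Laptm5 had the largest difference of the 9. Its p63-/- arrays read 9.84, 10.49 and 9.96 at E10 and 12.19, 11.53 and 11.47 at E13, and its p63+/- arrays 9.33, 10.15 and 10.51 at E10 and 11.99, 11.51 and 11.53 at E13. Between them, the E11 arrays read 10.47 to 11.06 and the E12 arrays 10.84 to 11.50. The difference from E10 to E13 was 1.66 (SE 0.19, adjusted p = 3.33e-07), and E10 and E13 did not overlap. Of 17 other lysosomal genes 8 rose and 1 fell (median 0.31), and 12 rose without E10 p63-/- replicate 3 (median 0.60). With all arrays in, 31.1% of all genes were called higher and 35% lower. Grn, progranulin, rose by 1.09, Psap, prosaposin, by 0.87 and Lamp2, a lysosomal membrane protein gene, by 0.82. Gpnmb, on no E10 array above background, was at least 1.23-fold higher at E13, and Ctsd fell by 0.35 (SE 0.11). Most tissues express lysosomal genes, and their mean level was also high, at 10.52, on an E10 p63-/- array, against 9.38 and 9.39 on the others of that group.

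Mrc1 varied most between E13 embryos. Its p63-/- arrays read 7.49, 7.69 and 8.36 at E10, 8.19, 8.07 and 8.01 at E11, 7.74, 8.56 and 7.78 at E12 and 9.56, 8.86 and 8.07 at E13. Its p63+/- arrays read 7.04, 7.18 and 7.70 at E10, 7.87, 7.73 and 8.11 at E11, 8.40, 8.07 and 7.79 at E12 and 9.60, 9.20 and 8.48 at E13. In p63+/- embryos the E13 arrays were above all earlier ones, whereas in p63-/- embryos the lowest E13 array, 8.07, lay below the E10 array at 8.36. That E10 array is the one with the high yolk sac genes, and on it Csf1r was also the highest of its group while C1qb and C1qc were the lowest; the part of the yolk sac genes in this was not tested. Mrc1 rose by 1.38 over both genotypes (SE 0.24, adjusted p = 4.08e-05).

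Lyz2 stood apart on 1 array. At E10 it read 7.43, 7.43 and 6.90 in p63-/- and 6.32, 7.20 and 7.49 in p63+/- embryos, and at E13 8.69, 8.31 and 8.00 and then 8.79, 8.15 and 8.37. At E11 the p63-/- arrays read 8.44, 7.79 and 7.72, but the p63+/- arrays 9.78, 7.23 and 7.63, the first of them being the highest Lyz2 level of all 24. Lyz2 rose by 1.26 from E10 to E13 (SE 0.33, adjusted p = 0.00234), the widest error of the 9, and its second probe by 1.34 (SE 0.32, adjusted p = 0.00129 over probes). The second probe followed the first with r = 0.97 over 24 arrays; the remaining Lyz2 probe was detected on 0 arrays. Lyz1, the neighbouring and near-identical lysozyme gene, read 8.96 ± 0.36 at E10 and 10.48 ± 0.31 at E13 (SD, n = 6) and was also high, at 11.89, on E11 p63+/- replicate 1, so the Lyz2 values are uncertain to the extent that the probes bind both transcripts. Chosen after the values were seen, Slpi (a leukocyte protease inhibitor gene) and Saa3 (an acute-phase gene) read 9.03 and 7.63 on that array, where none of the other 23 exceeded 6.57 and 5.76.

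The calls differed from step to step; the steps were not tested against each other. From E10 to E11, 3 of the 9 genes rose, when 9.53% of all genes were called higher: C1qc by 0.72 (SE 0.21, adjusted p = 0.0236), Laptm5 by 0.68 (SE 0.19, adjusted p = 0.0213) and Lyz2 by 0.97 (SE 0.33, adjusted p = 0.0499). Each of these calls was lost when certain single arrays were left out. For Laptm5 these were E10 p63+/- replicate 1, E11 p63-/- replicate 3 and E11 p63+/- replicate 1 (differences of 0.51, 0.63 and 0.59), and for C1qc E10 p63-/- replicate 3, E10 p63+/- replicate 1 and replicates 1 of both E11 groups with E11 p63+/- replicate 3 (0.56 to 0.70). For Lyz2 they were 21 of the 24, and the difference was 0.58 without E11 p63+/- replicate 1. With the 3 arrays left out together 0 of the 9 passed, the differences lay between -0.04 (C1qa) and 0.49 (Mrc1) with a median of 0.24, and C1qc was at 0.35, Laptm5 at 0.39 and Lyz2 at 0.32. The adjusted p-values of C1qc, Laptm5 and Lyz2 were then 0.251, 0.186 and 0.348, the highest over all alternatives, whose lowest were 0.0136, 0.00894 and 0.014. From E11 to E12, 1 of the 9 rose (17.1% of all genes were called higher), C1qa by 0.97 (SE 0.15, adjusted p = 0.000285). C1qa was detected on 2 of 6 E11 arrays, and this difference ran from 0.19 to 1.08 over all alternatives, so its size is uncertain. The median of the 9 was -0.05 and the other 8 lay between -0.25 and 0.28. From E12 to E13, 6 of the 9 rose (19.0% of all genes were called higher), with Mrc1 at 0.90 (SE 0.24), C1qb at 0.85 (SE 0.22), C1qc at 0.82 (SE 0.21), Laptm5 at 0.69 (SE 0.19), Fcer1g at 0.66 (SE 0.20) and Csf1r at 0.55 (SE 0.19), and adjusted p-values from 0.0044 to 0.0298. The differences of Lyz2 (0.53), Tyrobp (0.51) and C1qa (0.29) did not pass. Csf1r no longer passed without E12 p63-/- replicate 1 (0.38), E12 p63+/- replicate 3 (0.55), E13 p63-/- replicate 1 (0.44) or E13 p63+/- replicate 1 (0.45). The median over the 9 genes was 0.57 for the first step and 0.66 for the last, against 0.01 and -0.03 over all genes.

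**Figure D2:**
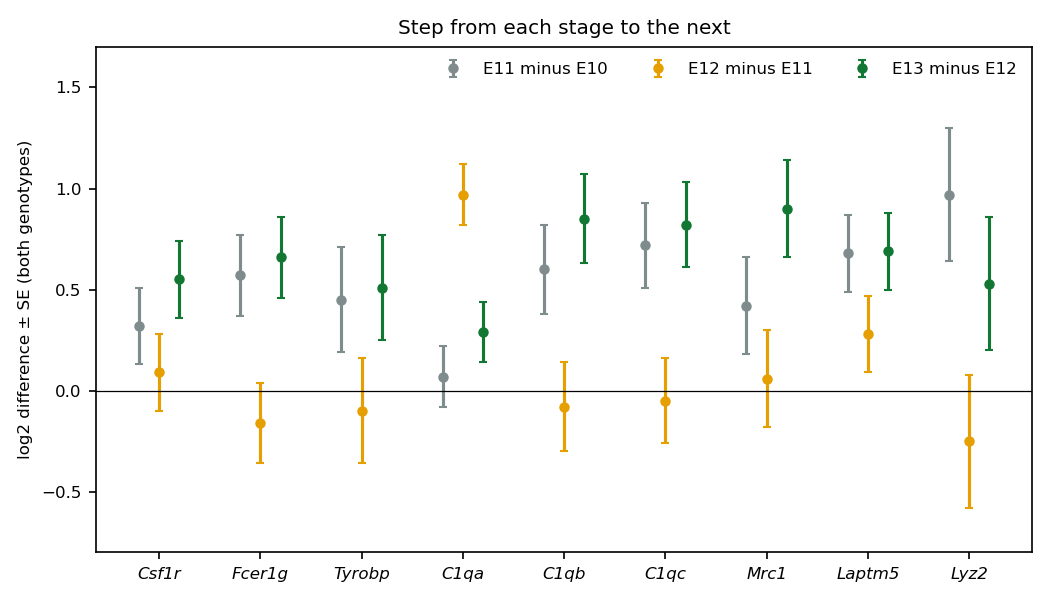
Log2 difference from each stage to the next for 9 macrophage genes, averaged over both genotypes, with its standard error. The step from E11 to E12 lies between -0.25 and 0.28 for all of them except C1qa (0.97), which is near background at E11. The step from E12 to E13 is above 0 in all 9.

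Within the genotypes the E13 level exceeded that at E10 in all 9 genes, but the tests passed less evenly. In p63+/- embryos 9 of 9 rose (25.3% of all genes were called higher), from 1.17 in Fcer1g to 1.78 in Mrc1, with a median of 1.44. In p63-/- embryos 7 of 9 rose (27.4% of all genes were called higher), with a median of 1.08; Laptm5 was highest at 1.63 (SE 0.27, adjusted p = 4.82e-05), and the differences of Tyrobp at 0.54 (SE 0.36, adjusted p = 0.212) and Lyz2 at 1.08 (SE 0.47, adjusted p = 0.0554) did not pass. Without E13 p63-/- replicate 1, which was the highest of its group in all 9 genes, 4 of 9 rose in p63-/-. The share of all genes called higher without that array was not computed. Without it Csf1r was at 0.46 (adjusted p = 0.203), Mrc1 at 0.62 (0.135) and Fcer1g at 0.69 (0.0631). Csf1r and Mrc1 also missed the threshold without E10 p63-/- replicate 1 or 2, and Fcer1g without E10 p63-/- replicate 3, with differences of 0.64 to 0.91. In p63+/- embryos Tyrobp (0.78 and 0.99) and Lyz2 (1.10 and 1.26) missed it without E10 p63+/- replicate 1 and without E13 p63+/- replicate 1. Lyz2 in p63-/- passed without E10 p63+/- replicate 1, E11 p63+/- replicate 1 or E11 p63+/- replicate 2, at an unaltered 1.08. The difference between the genotypes was itself tested: p63-/- minus p63+/- in the change from E10 to E13 lay between -0.80 (Mrc1, SE 0.47) and -0.05 (Laptm5, SE 0.38), and 0 of 9 passed (lowest adjusted p = 0.869), when 0.0709% of all genes did. At an unadjusted p under 0.05 the count was also 0. With the 3 arrays left out together, Laptm5 turned to 0.21.

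p63 genotype was not followed by a detectable difference in these genes. Averaged over the 4 stages, p63-/- minus p63+/- lay between 0.01 (Lyz2) and 0.22 (Tyrobp, SE 0.18), and 0 of 9 passed in limma (lowest adjusted p = 0.692, Csf1r), when 2.35% of all genes were called in either direction; 0 of 9 had an unadjusted p under 0.05. The 95% intervals of the 9 differences ran from -0.48 to 0.60, which leaves room for up to 1.39-fold less or 1.52-fold more in p63-/-. The sign of Lyz2 turned under 5 of 9 alternatives of processing, where it lay between -0.06 and -0.01.

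Stage by stage, 0 of 36 gene and stage pairs passed, while 0.795% of all genes were called at E10, 0.512% at E11, 0.299% at E12 and 0.307% at E13. The 9 values lay between 0.02 and 0.54 at E10, between -0.23 and 0.58 at E11, between -0.07 and 0.33 at E12 and between -0.26 and 0.05 at E13. At E10 the highest were Mrc1 at 0.54 (SE 0.34, adjusted p = 0.495), Tyrobp at 0.49 and Csf1r at 0.40. Mrc1 ran from 0.15 to 0.73 and Csf1r from 0.02 to 0.59 over all alternatives. In both genes E10 p63-/- replicate 3, with the high yolk sac genes, was the highest of its group. E10 p63+/- replicate 1 was the lowest of its own group in both. At E13 8 of 9 were below 0. C1qa at E11 was the single pair with an unadjusted p under 0.05 (0.52, SE 0.22, adjusted p = 0.771 in limma), and it did not pass. Here 2 of 3 p63-/- arrays lay above background, whereas 0 of 3 p63+/- arrays did. The remaining p63-/- array read 5.43, near the p63+/- values of 5.37, 5.09 and 5.30. The bound on the ratio of the group means was 1.12-fold, which takes no account of the spread between embryos. Over all alternatives the log2 difference ran from 0.09 to 0.70. The interaction of genotype with stage passed for 0 of 9 (adjusted p = 1 for each, and 0 of 9 at an unadjusted p under 0.05), when 0.0158% of all genes passed. Position on the slide differed between the genotypes at E11, E12 and E13 and cannot be told apart from genotype there.

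**Figure D3:**
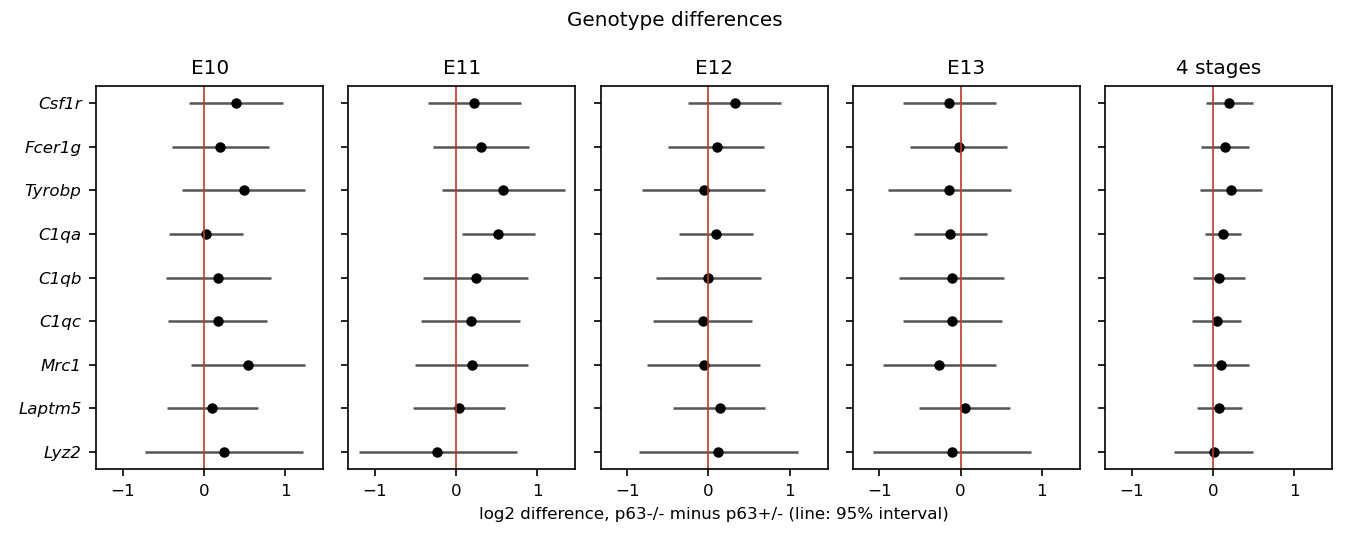
Log2 difference p63-/- minus p63+/- for 9 macrophage genes at each stage and averaged over the 4 stages; points are estimates and lines their 95% intervals. All intervals of the average include 0, and so do those at each stage except that of C1qa at E11 (0.07 to 0.97).

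Embryos of the same stage and genotype differed in most of these genes at once. E10 p63+/- replicate 1 was the lowest of its 3 in 9 of 9 genes, as was E12 p63+/- replicate 3, and the replicates numbered 1 of both E13 groups were the highest in 9 of 9. Over all genes the same arrays were the lowest in 35.8% and 36.8% and the highest in 35% and 31.8%. Mean deviation from the group over the 9 genes reached -0.54 on the first of these arrays and 0.47 on the third. The embryos that were highest at E13 also had the highest mean level of 10 endothelial genes in their groups, 10.22 against 9.64 and 9.90 in p63-/- and 10.05 against 9.78 and 9.92 in p63+/-; the part of the endothelial genes in this was not tested.

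Once each group's mean was subtracted, the correlation between pairs of the 9 genes over 24 arrays lay between 0.26 and 0.94 with a median of 0.65, and before subtraction between 0.49 and 0.98 with a median of 0.81 (36 pairs, which share their arrays). Mrc1 and C1qa followed the others least, with a median within-group correlation of 0.43 and 0.48, against 0.73 for C1qc and 0.71 for C1qb and Fcer1g.

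**Figure D4:**
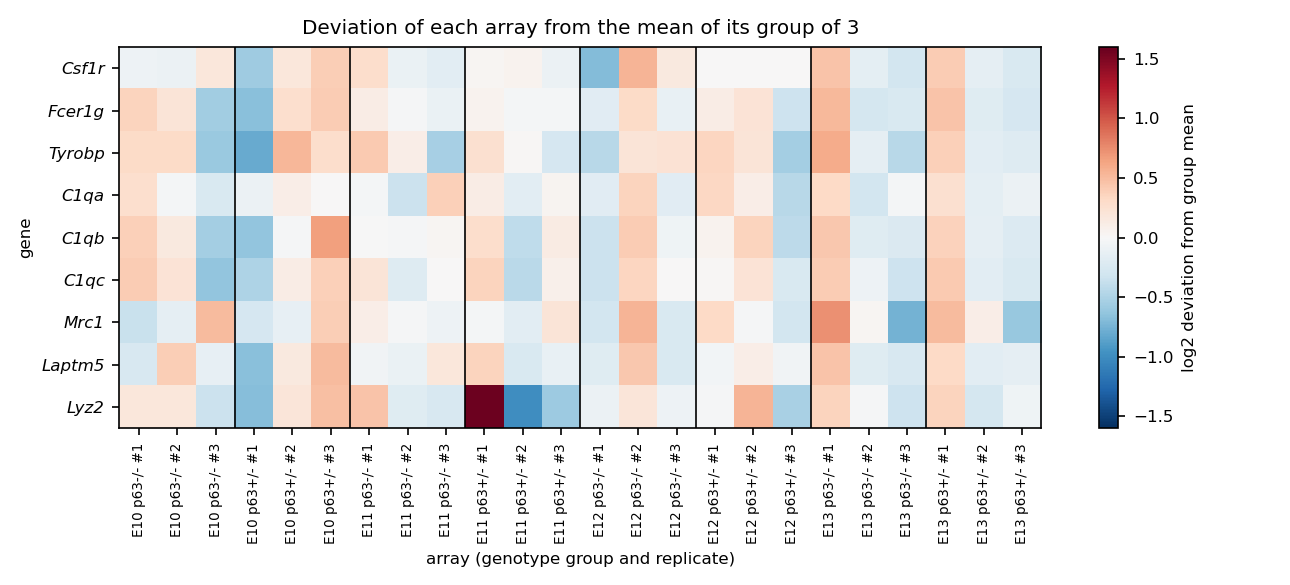
Log2 deviation of each of 24 arrays from the mean of its group of 3, for 9 macrophage genes; red is above and blue below the group mean, and black lines separate the groups. Whole columns share a colour, as in E10 p63+/- replicate 1 (all 9 below) and E13 p63-/- replicate 1 (all 9 above), and the darkest cell is Lyz2 on E11 p63+/- replicate 1.

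The genes most like the set were ranked by the correlation with the mean standardized level of the 9 over 24 arrays, among 12689 other genes. The first 10 were Cyth4 (0.96), P2ry6 (0.95), Adgre1 (0.95), Mpeg1 (0.93), Aif1 (0.91), Cd52 (0.91), C430049B03Rik (0.90), Fcrls (0.90), Ms4a6d (0.90) and Slco2b1 (0.89), when the median over all genes was -0.08 and the 99th percentile 0.84. All points share their arrays and the rise from E10 to E13. Within groups the first 10 were Adgre1 (0.95), Cyth4 (0.87), P2ry6 (0.87), Adamts13 (0.86), Mpeg1 (0.82), F13a1 (0.82), Epha3 (0.82), Adamts15 (0.81), Cd52 (0.81) and Myo1f (0.79), and 5 genes were in both rankings. Cyth4 encodes a cytohesin of blood cells and P2ry6 a receptor for extracellular nucleotides. Adamts13, at 0.86 within groups, fell by 0.47 from E10 to E13 and was detected on 10 arrays.

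Other macrophage genes rose in part. Of 16 further tissue macrophage markers tested, 7 rose and 1 fell from E10 to E13 (median 0.42), and 8 rose and 3 fell with the 3 arrays left out together (median 0.46). By comparison, 31.1% of all genes were called higher and 35% lower with all arrays in, at a median of -0.05. Adgre1 rose by 2.06 (SE 0.21, adjusted p = 8.5e-08), from 6.34 ± 0.41 to 8.40 ± 0.41 (SD, n = 6), and Mpeg1, a pore-forming protein of phagocytes, by 1.84 (SE 0.21, adjusted p = 2.5e-07). Ms4a7, a membrane protein gene, was on no E10 array above background and passed the filter through later stages. It was at least 2.49-fold higher at E13. Cx3cr1 rose by 1.35 and Cd33 fell by 0.49. Of 6 myeloid transcription factor genes 3 rose and 1 fell (median 0.37). Runx1, also a regulator of blood stem cells, rose by 1.62 and Irf5, detected on 1 of 6 E10 arrays, by 0.51. Maf was at least 1.06-fold higher at E13, and Ikzf1 fell by 1.48. Of 11 genes shared by leukocytes 4 rose and 0 fell (median 0.12), among them Cd52 by 1.06 and Cd53 by 0.88.

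Genes of other cell types moved over the same stages, in both directions, when 31.1% of all genes were called higher and 35% lower. Of 9 neutrophil genes 5 rose and 3 fell (median 1.27): S100a8, a calcium-binding protein gene of neutrophils, read 5.46 ± 0.85 at E10 and 10.17 ± 0.68 at E13 (SD, n = 6; difference 4.71, SE 0.40, adjusted p = 7.65e-09). S100a9, Ltf and Camp, on no E10 array above background, were at least 7.51-fold, 2.81-fold and 1.81-fold higher at E13. Mpo fell by 1.00 (SE 0.32), Csf3r by 0.89 (SE 0.17) and Prtn3 by 0.83 (SE 0.14), each detected on 6 of 6 E10 arrays. Of 5 mast cell genes 3 rose and 1 fell (median 0.96). The carboxypeptidase gene Cpa3 was at 3.18 and the histamine-forming enzyme gene Hdc at 2.10. Cma1 was at least 1.13-fold higher, and Kit, also a melanocyte gene, fell by 1.03. S100a8 and Cpa3 were each detected on 2 of 6 E10 arrays. All 10 endothelial genes tested rose (median 0.83), Cdh5 by 1.25, Eng by 1.18, Pecam1 by 1.04 and Esam by 1.01, and their mean level was 8.87 to 9.26 at E10 and 9.64 to 10.22 at E13. Of 5 lymphatic endothelial genes 2 rose and 0 fell (median 0.37), the chemokine gene Ccl21a by at least 27.3-fold and Prox1 by 0.81.

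Erythroid and yolk sac genes ran the other way. Of 9 erythroid genes 0 rose and 7 fell (median -1.93), with the embryonic globin gene Hbb-bh1 at -3.93, Klf1 at -3.50, Epor at -2.36 and Slc4a1 at -2.06, and their mean level was 12.22 to 13.40 at E10 and 10.50 to 10.99 at E13. Of 12 yolk sac endoderm genes 0 rose and 5 fell (median -1.64), with Ttr at -3.38, Apom 7.99-fold lower, Apoa1 at -2.57 and Hnf4a at least 2.32-fold lower, and E10 p63-/- replicate 3 was the highest array. Of all genes, 35% were called lower in this comparison. Without that array 5 of the 12 yolk sac genes still fell, but the median was -0.60, with Ttr at -2.24, Apom at -1.93, Apoa1 at -1.46 and Hnf4a at -0.63. Of 4 megakaryocyte and platelet genes 0 rose and 2 fell (median -0.57), Itga2b by 0.92 and Gp9 by 0.83. Of 4 T, NK and B cell genes 0 rose and 1 fell (median -0.18), Cd4 by 0.44. Cd4 was detected on 2 of 6 E10 and 1 of 6 E13 arrays, so its values lay near background. None of the genes in these lists was called for the genotype average, when 2.35% of all genes were. For the interaction of genotype with stage none was called either, when 0.0158% of all genes were. The part of these other cell types in the values of the 9 macrophage genes was not tested.

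**Figure D5:**
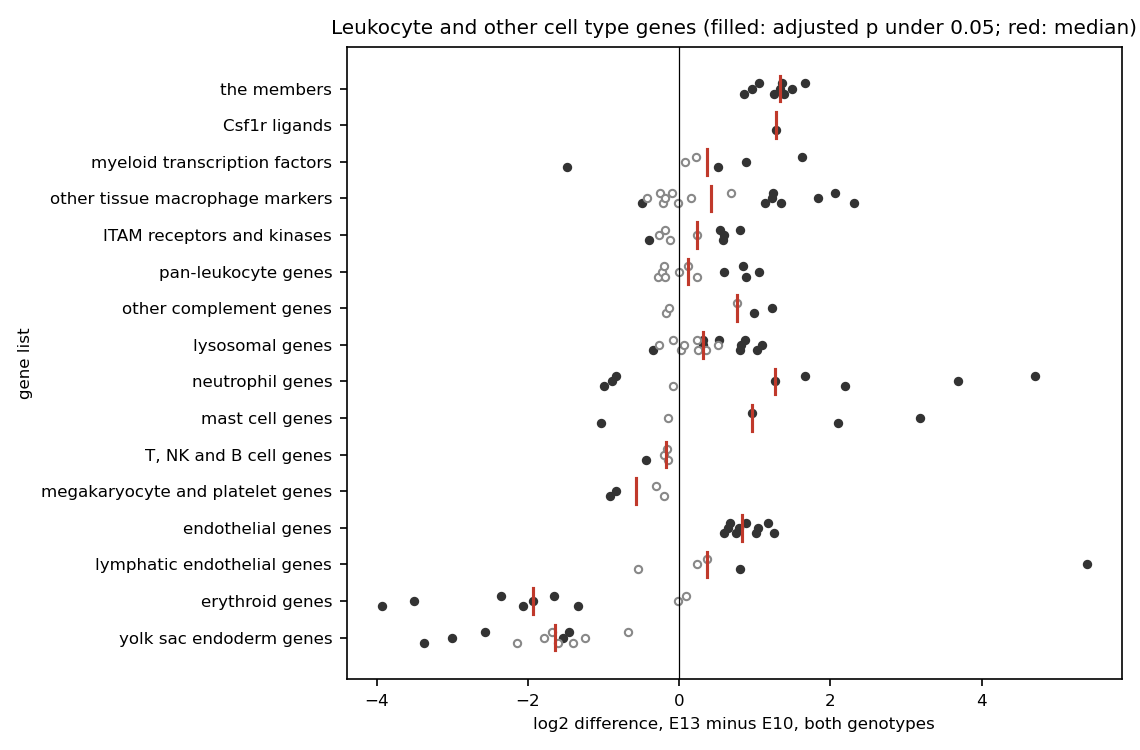
Log2 difference E13 minus E10, averaged over both genotypes, for the genes of each list; each point is a gene, filled where the adjusted p was under 0.05, and the red line is the median of the list. The 9 macrophage genes lie between 0.86 and 1.66, endothelial genes all above 0, and erythroid and yolk sac genes mostly below 0.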

How the data were processed

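Bead arrays measured the mandibular prominences of 24 embryos singly. Per the file headers, the authors deposited a linear intensity together with its detection p-value at 45281 probes. The authors' deposited log2 values, used as an alternative, have array medians of 7.922 to 7.932; the submitters' processing notes name BeadStudio, lumi and RMA, whose order and settings are not given in the sources used here.

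Background was corrected from the detection p-values and arrays were quantile-normalized in limma 3.58.1 (neqc, offset 16, log2 output) under R 4.3.3. A probe needed a detection p under 0.05 on 3 or more arrays (24233 did), and the probe with the highest mean stood for its gene (12698 genes). Platform annotation gave 34885 probes 1 gene, 18 several and 10378 none, and 34807 matched a RefSeq gene identifier (GRCm38.p6). Where no array of a group lay above background, a bound was computed: the dim side took, array by array, the lowest detected signal unless its own was higher, and the brighter mean was divided by the mean of these.

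A limma model held 8 group means (16 residual degrees of freedom), and Benjamini-Hochberg adjustment ran over all genes (threshold 0.05). The fit was tested on simulated data. Groups and replicate numbers came from the sample titles. Precision is limited by 3 arrays a group. The macrophage genes and the gene lists were chosen with earlier results of these data known. From each list the text names at most 4 genes, those with the largest change past the threshold from E10 to E13. Genes most like the set were ranked by Pearson correlation. Il34, Lyz1 and the genes named for E11 p63+/- replicate 1 lie outside that rule. So do Cd33, Plcg2, Ctsd, Mpo, Csf3r and Prtn3, genes that fell in their lists, named after their values were seen. Alternatives were no background correction, an offset of 50, the authors' values, no filter and a strict filter (p under 0.01 on 6 arrays), the mean of a gene's probes, the compared arrays alone, array weights, a replicate block, each array left out in turn, and 3 arrays left out together. Same-numbered embryos of a stage did not meet the rule for pairing. Searches of protein motifs were not run.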

Additional observations from a re-analysis of the deposited data

How the results depend on the processing

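The count of 9 genes that rose from E10 to E13 over both genotypes held under 9 other ways of processing and with each of 24 arrays left out; it was 8 with the 3 arrays left out together. Leaving out single arrays gave 7 to 9 in p63+/-, 4 to 8 in p63-/- (4 without E13 p63-/- replicate 1) and 7 to 12 calls over the steps, against 10. Shares over all genes were not computed with single arrays left out. For 16 other macrophage markers the calls in either direction were 8, and 8 to 11 under the alternatives. Genotype and interaction gave 0 throughout. The median difference of the 9 genes from E10 to E13 was 0.89 without background correction, 1.08 with an offset of 50, 0.73 in the authors' values and 1.15 with array weights, when the median of all genes lay between -0.07 and -0.02.

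Over all alternatives the adjusted p ran from 0.0163 to 0.203 for Csf1r, 0.00142 to 0.135 for Mrc1 and 0.00328 to 0.0717 for Fcer1g in p63-/-, and from 0.00152 to 0.0817 for Tyrobp and 0.00067 to 0.0809 for Lyz2 in p63+/-. The cause was not tested.

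Same-numbered embryos of a stage correlated at 0.04 to 0.63 in 12 pairs, 9 of them over 0.1, and in 11 of the 12 the array correlated best with its own number. Their sample codes are neighbours, but the labels do not say that a number marks a shared litter, so this is a hint and not the design. With the replicate block, the genes rising from E10 to E13 stayed 9, and C1qc for E11 minus E10 (adjusted p = 0.0597), Lyz2 for E11 minus E10 (0.0942) and Csf1r for E13 minus E12 (0.0534) no longer passed. With it 0 of 9 genes passed for the genotype average, at each stage and for the interaction.

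Signs turned in values that passed no test. Lyz2's genotype average was -0.03 without background correction, -0.01 with an offset of 50, -0.05 in the authors' values and in the mean of probes, -0.06 with array weights, and -0.12 to 0.20 with single arrays left out. E12 minus E11 was -0.03 for Csf1r with array weights. With the 3 arrays left out, E11 minus E10 was -0.04 for C1qa, E12 minus E11 0.03 for C1qc and 0.14 for Lyz2, the genotype average 0.00 for Mrc1 and the genotype difference in E13 minus E10 0.21 for Laptm5. Ranges with single arrays left out were, for E11 minus E10, -0.02 to 0.16 in C1qa. For E12 minus E11 they were -0.05 to 0.26 in Csf1r, -0.18 to 0.03 in C1qb, -0.16 to 0.03 in C1qc, -0.24 to 0.03 in Tyrobp, -0.07 to 0.13 in Mrc1 and -0.49 to 0.14 in Lyz2. For the genotype average they were 0.00 to 0.16 in C1qb, -0.02 to 0.12 in C1qc and 0.00 to 0.15 in Laptm5, and for the genotype difference in E13 minus E10 -0.61 to 0.03 in C1qb, -0.50 to 0.11 in Fcer1g and -0.31 to 0.28 in Laptm5.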
